A study of Mus musculus with 5 samples.

Results

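The genomic window that holds the chemokine genes Ccl2 and Ccl7 was examined in 4 lists of binding sites (peaks) from chromatin immunoprecipitation and sequencing (ChIP-seq). Members were all peaks whose centre lay on chromosome 11 between positions 81780000 and 81950000 of the mouse build mm9. They numbered 37 of the 83829 peaks in the 4 lists. The window had been chosen on measured values, namely a fall in the number of listed c-Jun peaks, so that its peak counts are a description and are not tested. That the window holds Ccl2 and Ccl7 is taken from the rule that set it. No mm9 annotation or sequence was used here, and no peak is assigned to a gene.

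All libraries came from MS5, an established line of mouse bone marrow stromal cells, at passage 11. Cells of every group were exposed for 5 h to TGF-β1 at 10 ng/mL, so no group shows the cells before TGF-β1. The groups were p300 antibody without pioglitazone, p300 antibody with pioglitazone at 20 ng/mL, c-Jun antibody without pioglitazone and c-Jun antibody with pioglitazone at 20 ng/mL. Each group was 1 library, and the series also has a pooled input that was not analysed here. A difference between treatments is therefore a difference between 2 libraries, with no replicate check, no p-value and an unknown sequencing depth.

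Ccl2 (MCP-1) and Ccl7 (MCP-3) are secreted CC chemokines that bind the receptor CCR2 and draw monocytes out of the marrow and into inflamed tissue. Stromal cells are among their sources, and Ccl2 was first known as an early gene switched on by growth factors and inflammatory cytokines. c-Jun is a subunit of AP-1, a transcription factor class long tied to such early genes. p300 is a histone acetyltransferase and coactivator that marks active enhancers and promoters, and TGF-β1 is a cytokine that drives stromal cells towards a fibrotic state. Pioglitazone activates the nuclear receptor PPARγ, which in other settings represses inflammatory chemokine genes. In the RefSeq gene table (GRCm38.p6) the next protein-coding genes after Ccl2 and Ccl7 are, in order, Ccl11, Ccl12, Ccl8 and Ccl1, all CC chemokines, and the 2 before are Asic2, an ion channel gene, and 1700071K01Rik.

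In the window, p300 had 13 peaks without pioglitazone and 9 with it, and c-Jun had 10 without and 5 with it. An average stretch of chromosome 11 of the same length, 170 kb, held 2.75 peaks of p300 without pioglitazone and 1.97 with it. For c-Jun the averages were 1.53 and 1.21. All 4 lists were denser here than on the chromosome as a whole. A window chosen for a fall in listed c-Jun peaks must hold such peaks to begin with, so this density is only a description. The lists themselves were shorter with pioglitazone: 21994 p300 peaks against 31466, and 13325 c-Jun peaks against 17044. As a share of its list, the window took 0.0413% for p300 without pioglitazone and 0.0409% with it, and for c-Jun 0.0587% and 0.0375%. The p300 share was nearly level between treatments, and the c-Jun share was lower with pioglitazone.

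**Figure D1:**
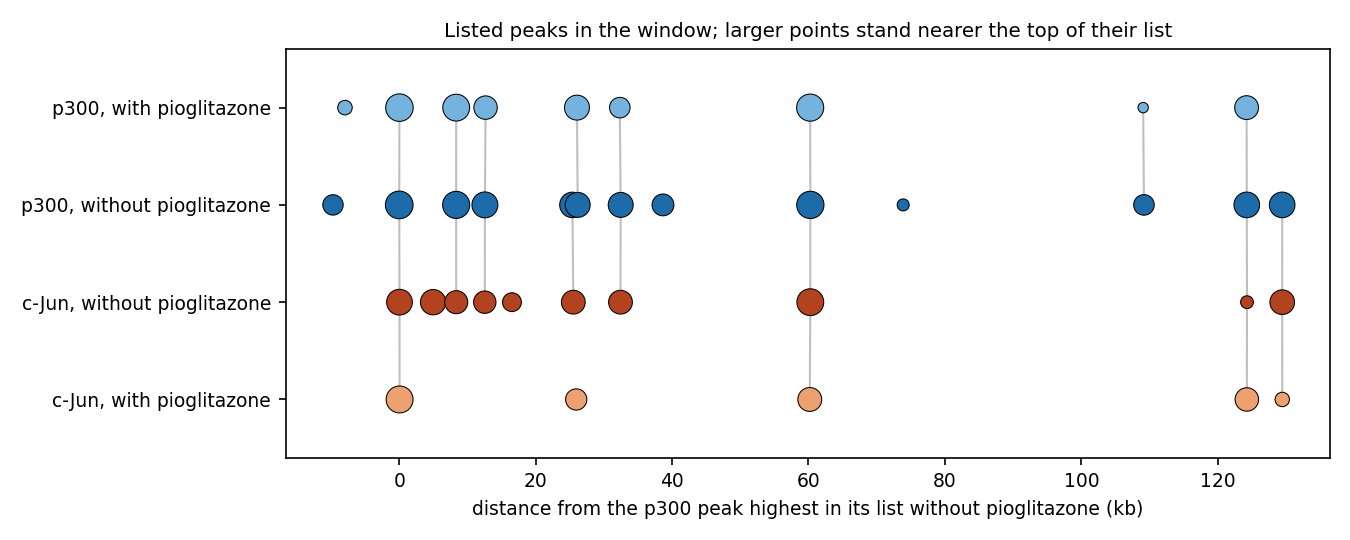
Listed peaks along the window, as distance in kb from the p300 peak that stands highest in its list without pioglitazone, with 1 row for each antibody and treatment and grey lines joining overlapping peaks of neighbouring rows. The row of c-Jun without pioglitazone has 10 points and the row with it 5, and most of the points without a counterpart lie within the first 48626 bp of peaks, where c-Jun went from 7 to 2.

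Peaks that overlapped by at least 1 bp were merged, which gave 16 sites, numbered here 1 to 16 along the chromosome. Of these, 3 were in all 4 lists, 8 had p300 in both treatments, 4 had c-Jun in both treatments and 6 were in a single list. p300 was never listed at 2 c-Jun sites, and c-Jun was never listed at 5 p300 sites. Sites 1 to 11 lay within one run of neighbouring peaks no more than 12500 bp apart, a domain from 81810643 to 81859268. The other 5 sites were spread over the remainder of the window.

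The deposited score is 1 for every peak, so that height is not known. Row order is used in its place, given as the percentage of the list that lies at or above the peak (0% is the top). No source used here states what the rows were sorted by. The order is also coarse. Rows run in blocks that are sorted by chromosome and start, and 97.0 to 97.5% of rows follow the row before them within such a block. Rows of 1 block are treated here as unranked. The blocks that hold the members had 4 to 288 rows, which is small beside the lists. The lists differ in length and in content, so a percentage can change between them with no change at the site. Over the 16077 p300 peaks without pioglitazone that overlapped one with it, the percentage with pioglitazone minus that without had a median of 5.53 points (5th to 95th percentile -20.0 to 42.8), where a positive value is lower in the list. Over the 7783 such c-Jun peaks it had a median of 2.30 points (-30.9 to 43.1). Moves inside these ranges are given below as values and not read as changes at a site. The ranges cover all shared peaks, wherever they stood in the list, and ranges by position were not computed.

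Site 3 (chr11:81820355-81820649) held the window's highest p300 peak in each p300 list and was 1 of the 3 sites in all 4 lists. p300 stood at row 704 of 31466 (2.24%) without pioglitazone and at row 758 of 21994 (3.45%) with it. c-Jun stood at row 2934 of 17044 (17.2%) without and at row 1079 of 13325 (8.10%) with pioglitazone. The p300 position was near the top in both treatments, and the moves of both factors lay inside the ranges of all shared peaks. The 2 p300 centres were 29 bp apart and the 2 c-Jun centres 14 bp apart.

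Site 12 (chr11:81880548-81880871), which stood 21279 bp beyond site 11, was also in all 4 lists. p300 was at row 1713 (5.44%) without and row 1431 (6.51%) with pioglitazone. c-Jun was at row 1536 (9.01%) without pioglitazone, the highest c-Jun position of the window in that treatment, and at row 4048 (30.4%) with it. p300 thus kept its place near the top, and c-Jun stood 21.4 percentage points lower in its list, inside the range of all shared c-Jun peaks. Without pioglitazone the p300 and c-Jun centres were 3 bp apart, the closest pair in the window.

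Site 15 (chr11:81944593-81944890) and site 16 (chr11:81949797-81950056) are neighbours, separated by 4906 bp, and their c-Jun positions crossed. At site 15 c-Jun stood at row 15149 of 17044 (88.9%) without pioglitazone and at row 4421 of 13325 (33.2%) with it. At site 16 c-Jun stood at row 4287 (25.2%) without and at row 11018 (82.7%) with pioglitazone. Site 16 was thus the higher of the pair without the drug and site 15 with it. Without pioglitazone p300 stood at rows 5653 and 5654 of the 2 sites, in the same block of 37 rows. With pioglitazone p300 was at row 6769 (30.8%) at site 15 and was not listed at site 16, where the nearest p300 centre was 3260 bp away. Moves of this size were uncommon across the lists: of the 7783 shared c-Jun peaks, 305 moved by more than 50 percentage points (3.92%), 225 of them down the list and 80 up. In the window 2 of the 4 c-Jun peaks listed in both treatments did, 1 in each direction. Where a peak stands in its list limits how far it can move. The share of such moves among peaks that started near these positions was not computed.

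**Figure D2:**
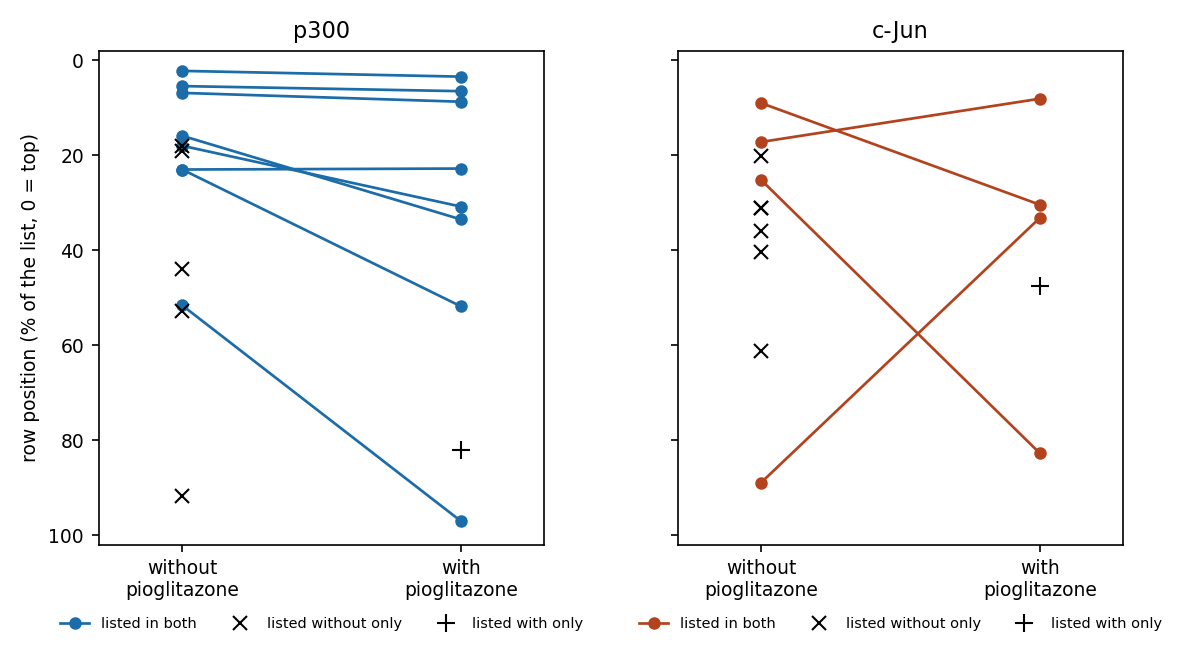
Row position as a percentage of the list (0 at the top) without and with pioglitazone for the window's p300 and c-Jun peaks, where lines join peaks that overlap, crosses are peaks listed without pioglitazone only and plus signs peaks listed with it only. Of the 8 p300 lines 7 run downwards, where all shared p300 peaks of the lists had a median change of 5.53 points downwards. The c-Jun lines of sites 15 and 16 cross, from 88.9% to 33.2% and from 25.2% to 82.7%.

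Sites 5, 6 and 10 kept p300 and were without c-Jun when pioglitazone was present. At site 5 (chr11:81828701-81828958) p300 was near the top in both treatments, at row 2162 (6.87%) without and row 1919 (8.73%) with pioglitazone, and the 2 centres were 5 bp apart. c-Jun was listed there at row 6144 (36.0%) without pioglitazone, and with it the nearest c-Jun centre was 8302 bp away. At site 6 (chr11:81832896-81833251) p300 went from row 5017 (15.9%) to row 7375 (33.5%), and c-Jun was at row 6889 (40.4%) without pioglitazone only. At site 10 (chr11:81852703-81853069) p300 went from row 7248 (23.0%) to row 11393 (51.8%), and c-Jun was at row 5296 (31.1%) without pioglitazone only. The p300 position changed by 17.6 and 28.8 percentage points at sites 6 and 10 and by 1.86 points at site 5, all inside the range of shared p300 peaks.

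c-Jun was listed without p300 in either treatment at site 4 (chr11:81825321-81825569) and site 7 (chr11:81836879-81837127), both without pioglitazone only. Their rows were 3432 (20.1%) and 10448 (61.3%). The nearest p300 centre without pioglitazone was 3379 bp from the first and 3964 bp from the second. Both sites lay between p300 sites of the same domain and not at its edge.

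Sites 8 and 9 were 187 bp apart and differed in both factors between the treatments. Without pioglitazone p300 was listed at both, at row 5997 (19.1%) at site 8 (chr11:81845747-81846121) and at row 7247 (23.0%) at site 9 (chr11:81846309-81846766), and c-Jun at site 8 only, at row 5295 (31.1%). With pioglitazone both factors were listed at site 9 only, p300 at row 5024 (22.8%) and c-Jun at row 6337 (47.6%). The c-Jun peak listed with pioglitazone had its centre 429 bp from the one listed without it, so by the 1 bp rule 1 counts as lost and the other as newly listed. This is the window's only c-Jun peak listed with pioglitazone that overlapped none without it, and the overlap rule decides how it is counted. If centres within 500 bp are taken as shared, 5 of the 10 c-Jun peaks without pioglitazone have a counterpart, in place of 4. The share of the whole c-Jun list under that rule was not computed, so this count shows only the effect of the rule.

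The remaining 5 sites carried p300 only. Sites 1 (chr11:81810643-81810889), 11 (chr11:81859022-81859268) and 13 (chr11:81894234-81894480) were listed without pioglitazone only, at rows 16624 (52.8%), 13843 (44.0%) and 28851 (91.7%). Site 2 (chr11:81812409-81812635) was listed with pioglitazone only, at row 18058 of 21994, with its centre 1756 bp from that of site 1. Site 14 (chr11:81929432-81929781) was in both p300 lists, at row 16231 (51.6%) without and row 21327 (97.0%) with pioglitazone. These 5 were the lowest p300 positions of the window in the list without pioglitazone, where they were listed at all, and the 2 lowest in the list with it.

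Over the window, 5 of the 13 p300 peaks without pioglitazone had no p300 peak with it, 38.5% (exact Clopper-Pearson 95% interval 13.9 to 68.4, counting error only), against 48.9% of the whole p300 list. This count depends on the overlap rule: with centres required to lie within 100 bp, 8 of 13 had no counterpart, 61.5% (31.6 to 86.1), against 55.9% of the list, so that the window's share goes from below to above that of the list. For c-Jun the count was 6 of 10, 60.0% (26.2 to 87.8), against 54.3% of the whole c-Jun list. The whole-list shares lie inside the window's intervals. These intervals are wide and treat neighbouring peaks of 1 library as independent, so they can show neither a difference nor its absence. The p300 share is not read as a result about the window. Nothing is read from the c-Jun share either, since the window was chosen on that contrast. Of the 9 p300 peaks with pioglitazone 1 had no p300 peak without it, 11.1% (0.281 to 48.2) against 26.9% of that list, and of the 5 c-Jun peaks with pioglitazone 1 did, 20.0% (0.505 to 71.6) against 41.6%.

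Peaks near the top of a list are shared more often than those near its end, and the window's peaks stood towards the top. When each list is divided into 10% steps, the shares without a counterpart in the steps where the window's peaks stood averaged 27.7% for p300 and 46.2% for c-Jun. In the window they were 38.5% (13.9 to 68.4) and 60.0% (26.2 to 87.8). The window's p300 share was thus below that of the whole list and above that of its steps. With p300 centres required to lie within 100 bp, the p300 average over the steps was 34.0%, against 61.5% in the window (31.6 to 86.1). No c-Jun peak in the first 2 steps of the list without pioglitazone was lost from the window, and 5 of the 6 lost ones stood between 20.1% and 40.4% of the list. In those steps 39.1% to 53.7% of all c-Jun peaks had no counterpart. For p300, all 3 window peaks in the first step were kept, where 3.81% of all peaks had no counterpart. In the second step, where 12.4% had none, 2 of the 4 window peaks had no counterpart, at sites 8 and 16.

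**Figure D3:**
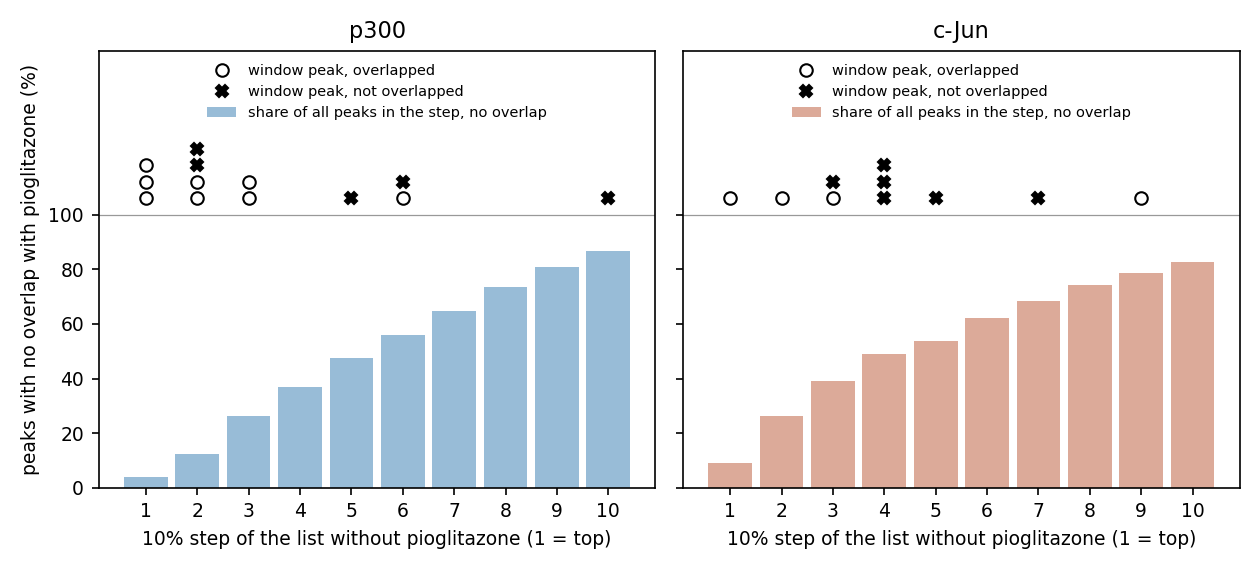
Share of all p300 and c-Jun peaks without pioglitazone that had no overlapping peak with it, by 10% step of the list (bars, in %), with the window's peaks drawn above as open circles (overlapped) or filled crosses (not overlapped). The bars rise from 3.81% to 86.7% for p300 and from 9.27% to 82.5% for c-Jun, and the window's c-Jun peaks without a counterpart lie in steps 3, 4, 5 and 7.

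p300 and c-Jun shared most of the window's c-Jun sites in both treatments. Without pioglitazone 8 of 10 c-Jun peaks overlapped p300, 80.0% (44.4 to 97.5), against 69.4% of the c-Jun list, and with pioglitazone 4 of 5 did, 80.0% (28.4 to 99.5), against 55.5%. Seen from p300, 8 of 13 peaks without pioglitazone overlapped c-Jun, 61.5% (31.6 to 86.1) against 37.6% of the p300 list, and with it 4 of 9 did, 44.4% (13.7 to 78.8) against 33.7%. All 4 whole-list shares lie inside the window's intervals. In the 10% steps where the window's peaks stood, the mean shares were closer still: 76.6% and 59.8% for c-Jun peaks without and with pioglitazone, and 54.5% and 42.5% for p300 peaks. The distance between overlapping p300 and c-Jun centres had a median of 23.5 bp over 8 pairs without pioglitazone (3 to 127 bp) and of 47.5 bp over 4 pairs with it (25 to 108 bp), and over the whole lists the medians were 40 and 47 bp. The widest pair without pioglitazone was at site 8 and the widest with it at site 9.

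Of the 8 sites with both factors without pioglitazone, 3 kept both (sites 3, 12 and 15), 37.5% against 46.9% of the 11828 such sites genome-wide. Another 3 kept p300 and lost c-Jun (sites 5, 6 and 10), 37.5% against 27.2%. Site 16 lost p300 and kept c-Jun, 1 of 8 against 9.44%, and site 8 lost both, 1 of 8 against 16.5%. With 8 sites these shares have little precision. Each of the 4 outcomes was thus seen in the window.

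Among the 8 p300 peaks listed in both treatments, 7 had a larger percentage with pioglitazone, as did 69.9% of all shared p300 peaks, and by row number 5 of the 8 stood lower. Their median change was 7.33 points, against 5.53 over all shared p300 peaks, so that the p300 positions moved about as those of the list did. Site 14, with a change of 45.4 points, was the only one of the 8 outside the range of the list. For c-Jun, 2 of the 4 shared peaks stood lower and 2 higher, and the median size of the move was 38.5 points, against 11.5 over the whole list. That median rests on 4 moves, of -9.10, 21.4, -55.7 and 57.5 points at sites 3, 12, 15 and 16. It is not read as a trait of the window. The p300 centres of the 8 shared peaks lay a median of 64.0 bp apart between treatments, against 38 bp over all shared p300 peaks. The wider distances were at sites 10 (130 bp), 14 (113 bp), 9 (109 bp) and 6 (99 bp), and the other 4 were at most 29 bp.

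The c-Jun change was set beside that of other domains with as many c-Jun peaks. Of the 25240 domains formed in the same way, 17 held at least 7 c-Jun peaks without pioglitazone, the one in this window included. In the other 16, c-Jun peaks with pioglitazone numbered 3 to 7, with a median of 5.50, against 2 here. The share of c-Jun peaks without pioglitazone that had a counterpart was 14.3% here (1 of 7, at site 3) and 25.0 to 85.7% in the others, with a median of 53.6%. These shares use the 1 bp rule. Under it the c-Jun peaks of sites 8 and 9, with centres 429 bp apart, are not counterparts. The domains were not compared under a wider rule, so the place of this domain may depend on the rule. p300 peaks with pioglitazone numbered 75.0% of those without it, and the median of the others was 84.5%. The domain was taken because it held most of the window's peaks, and the window was chosen for a c-Jun fall. The place of the domain at the low end of the 17 is therefore only a description. The window's c-Jun peaks outside the domain, at sites 12, 15 and 16, were listed in both treatments.

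The edge of the window matters little on one side and more on the other. On the near side no list has a peak between the window's start and 30766 bp inside it, and the last peaks before the start lie at least 56910 bp away. At the far end the centres of site 16 lay 61 to 80 bp inside the limit. The next peaks beyond it lay 3073 to 3180 bp outside, in all 4 lists, for p300 at row 753 without pioglitazone and row 339 with it and for c-Jun at rows 4141 and 4049. With the window widened to positions 81680000 to 82050000, c-Jun peaks numbered 14 without and 8 with pioglitazone. Of the 14, 7 had a counterpart. In the whole c-Jun list without pioglitazone, 54.3% of peaks had none.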

How the data were processed

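Binding of p300 and c-Jun was measured by ChIP-seq, 1 library per antibody and treatment. Per the submitters' processing notes, Bowtie2 (2.3.4.3), SAMtools (1.9) and HOMER (version not given) were used with build mm9. Nothing in the sources used here gives their settings, the use of the input or the sorting of the rows. The authors deposited 1 peak list per library, with starts, ends and a score that is 1 in every row; peak widths are 227 to 249 bp and equal within a list. No read counts are in the lists, so depth and its precision are unknown.

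Peaks centred in the window were taken with Python (3.11.15, pandas 2.3.3, scipy 1.17.1). Peaks sharing at least 1 bp counted as overlapping, and the counts matched bedtools (2.31.1) in 24 of 24 comparisons. The overlap function was also tested on simulated data. Domains joined centres up to 12500 bp apart. All members are named. The members, gene names and comparisons were chosen with earlier results of these data known. The planned gene distances and motif counts were not run: Ccl2 and Ccl7 were matched to none of the promoter sequences used, and no mm9 sequence was used.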

Additional observations from a re-analysis of the deposited data

Results flagged for a closer look

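At 2 of the 3 sites listed in all 4 lists, the row percentage with pioglitazone minus that without had opposite signs for c-Jun and p300. Genome-wide, 69.9% of shared p300 peaks and 60.2% of shared c-Jun peaks stood lower with pioglitazone. The share of all such sites with opposite signs was not computed, so the count is not read as a trait of the window. At site 3 the c-Jun position changed by -9.10 percentage points and the p300 position by 1.21. At site 15 the c-Jun position changed by -55.7 points and the p300 position by 12.8. A negative value is a move towards the top. All shared p300 peaks had a median change of 5.53 points between lists of unequal length. The p300 value at site 3 is smaller than that median. Since peak height is unknown, it is read neither as a fall at the site nor as the absence of one. Of these values, only the c-Jun value at site 15 lies outside the 5th to 95th percentile of all shared peaks of its antibody. The difference between the antibodies was not tested, since each group is 1 library.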

How the results depend on the processing

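Of 52 recomputed counts, 41 were within 1.5 times the reported one. All alternatives were planned. The other 11 were these. In the upper 50% of the rows of every list, 2 of 8 c-Jun peaks without pioglitazone had a c-Jun counterpart. The share of all c-Jun peaks under that setting was not computed, so nothing is read from this count. In the wider window there were 8 c-Jun peaks with pioglitazone, and 7 c-Jun peaks without it had a counterpart. With centres within 100 bp, 5 of 13 p300 peaks without pioglitazone had a counterpart. In the domain joined at 12500 bp, which covers a shorter stretch, there were 8 p300 peaks without pioglitazone, 5 of them with a counterpart, and 2 c-Jun peaks with pioglitazone, both overlapping p300. There, 1 of 7 c-Jun peaks without pioglitazone had a counterpart, 5 overlapped p300, and 1 site was in all 4 lists. With the lists without pioglitazone shortened to the length of those with it, the window held 12 p300 and 9 c-Jun peaks without pioglitazone, against 9 and 5 with it. c-Jun and p300 peaks were fewer with pioglitazone under every alternative that recounted them. These alternatives recount largely the same peaks of a window chosen for its c-Jun fall, so they are no independent check. Except where the lists were shortened to equal length, the lists with pioglitazone were also the shorter ones. No paired analysis was possible because each group is 1 library. Depth and peak height are unknown, and their part in the differences was not tested.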
